A study of Homo sapiens with 4 samples.

Results

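The genes described here are the G1 cyclins, their kinases and the core of the RB pathway: CCND1, CCND3, CCNE1, CCNE2, CDK2, CDK4, CDK6, RB1, E2F1 and CDKN1B. They were chosen by symbol, and all 10 were found among the 23217 gene symbols of the deposited transcript table, with 15 of its 44578 transcripts. The cells were LV-M100, a clonal subline of the breast cancer line MDA-MB-231 that the study selected for low variability of cell size. Cells in 1 condition received siRNAs against SNRNP40, a spliceosome protein that belongs to the U5 small nuclear ribonucleoprotein, as siSNRNP40 #1 in replicate 1 and siSNRNP40 #2 in replicate 2. Control cells received the negative control NC1 in replicate 1 and the BLOCK-iT Fluorescent Oligo in replicate 2. RNA from all 4 cultures was taken 48 h after transfection, and ribosomal RNA was removed before sequencing, so all groups share the clone, the transfection and the time.

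In the G1 phase a cell decides whether to enter another round of division. D cyclins bind CDK4 and CDK6, and E cyclins bind CDK2, and both kinase complexes phosphorylate the retinoblastoma protein RB1. Unphosphorylated RB1 holds the E2F transcription factors inactive, while its phosphorylation releases them to switch on the genes of DNA synthesis, E cyclins and E2F1 among them. CDKN1B (p27) binds cyclin and CDK complexes and restrains the kinase acting with cyclin E. MDA-MB-231 cells are known to lack CDKN2A, the gene of the CDK4 and CDK6 inhibitor p16.

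The siRNAs against SNRNP40 are shown because they define the comparison. Each is the sense strand of a stretch of 18 bases of the SNRNP40 transcript, printed 5′ to 3′ as in the sample labels, with the complete matching stretch in capitals:
siSNRNP40 #1: GGAAUAGACAAUGAUAUC
siSNRNP40 #2: GGAUUUGACCGACUGAUA
Neither sequence, read on either strand, occurred in the canonical transcript of any of the 10 genes in the GENCODE annotation of GRCh37. Only the complete 18 bases were searched for, and shorter matches and other transcripts were not examined.

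The file gives 1 FPKM value per transcript and condition, that is, sequenced fragments relative to the length of the transcript and to all mapped fragments of the library, with the 2 libraries of a condition pooled by the authors. The table holds no value of a single library and no read counts, so the values are given without an error and no test was run on them. The authors' own test results in the same table were not used here. Values of all transcripts of a gene were added, and changes are given as log2 of siSNRNP40 over siControl. SNRNP40 itself had 40.4 FPKM with siControl and 6.12 with siSNRNP40, a log2 fold change of -2.72. The markers fixed for MDA-MB-231 cells (VIM, CD44, AXL, CAV1 and MSN) had levels from 116 to 750 FPKM with siControl, while 5 of 6 luminal markers and 5 of 6 markers of blood, endothelium and fibroblasts had a mean FPKM below 1. CDKN2A was listed at 0 in both conditions over its 5 transcripts, and CDKN2B, which encodes the CDK4 and CDK6 inhibitor p15, reached no more than 0.00904 FPKM.

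Every one of the 10 genes was expressed, and none changed by as much as 0.5 on the log2 scale. E2F1 was 27.3% higher with siSNRNP40 and CCND3 21.3% higher, whereas CCNE2 was 23.3% lower, CCNE1 19.3% lower and CDKN1B 17.7% lower. The kinases CDK2 and CDK4 lay closest to their control values. In total 3 of the 10 genes were higher and 7 were lower, beside 50.5% higher and 49.5% lower among the 12334 genes whose mean FPKM was 1 or more, called expressed genes here. The median log2 fold change of the 10 genes was -0.124, beside 0.003 for all of these genes and -0.015 for the 6060 genes whose level lay between those of E2F1 and CCND1. From the pooled values alone, these shifts cannot be set against the variation between the 2 libraries of a condition.

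**Figure D1:**
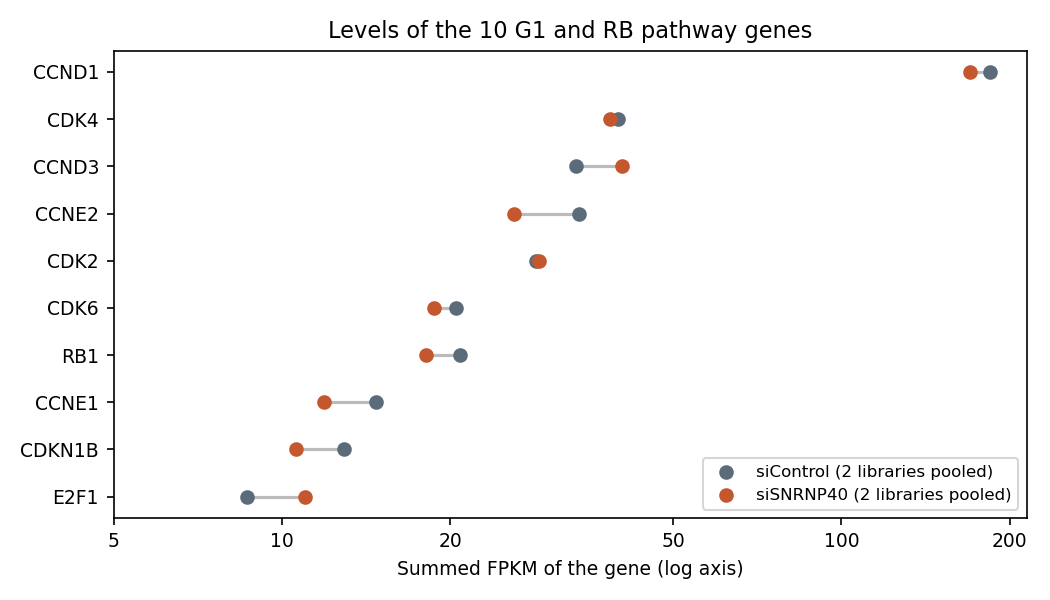
Summed FPKM of each of the 10 genes on a log axis, with 1 point per condition, each point being the authors' pooled value of 2 libraries, ordered by mean level. CCND1 stands far above the other genes in both conditions, and the longest connecting lines are those of E2F1, CCNE2 and CCNE1.

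No gene of the 10 passed an absolute log2 fold change of 1, which 1.47% of the 12334 expressed genes did. None passed 0.5 either, beside 10.3% of all genes. Of the 6060 genes with levels between those of E2F1 and CCND1, 25 passed 1 and 303 passed 0.5. At an absolute value of 0.25, a limit chosen after the values were seen, 5 of the 10 passed, beside 33.7% of all genes. E2F1 and CCND3 were above 0.25, and CCNE1, CCNE2 and CDKN1B were below -0.25, beside 17.2% and 16.5% of all genes. Of the same 6060 genes, 642 were above 0.25 and 883 below -0.25. The median absolute log2 fold change was 0.241 for the 10 genes, 0.170 for all genes and 0.141 for those 6060 genes. The largest absolute value, that of CCNE2, was equalled or exceeded by 10.2% of the 3638 genes whose mean FPKM was within 2-fold of its own.

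**Figure D2:**
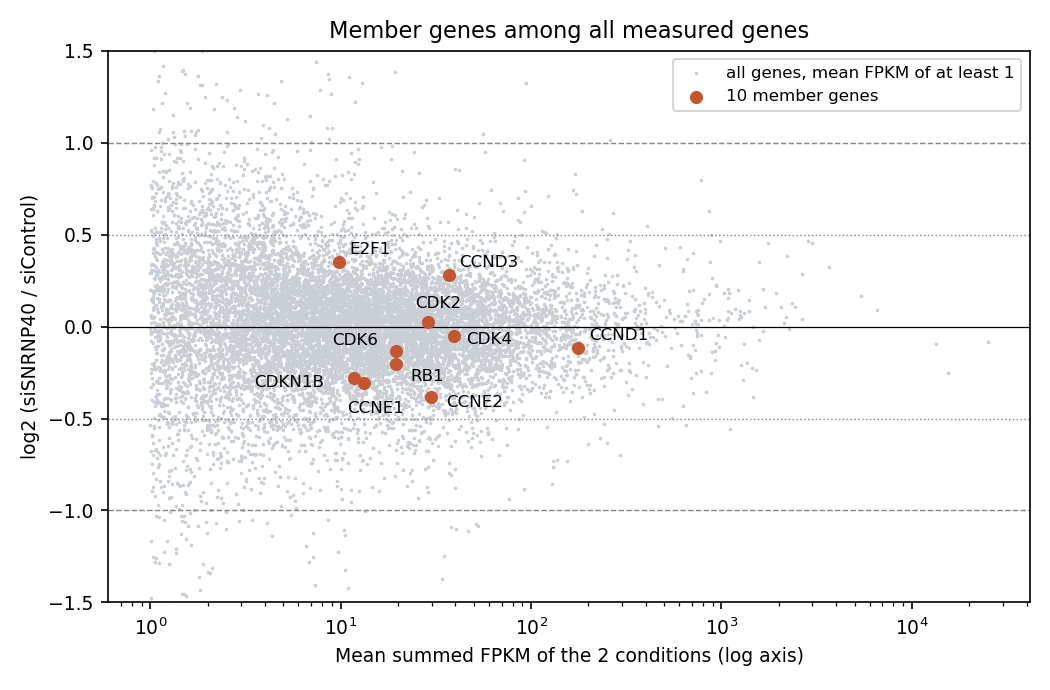
Each grey point is 1 of 12334 genes, with its mean summed FPKM on a log axis and the log2 ratio of siSNRNP40 to siControl, and red points are the 10 genes; dotted lines mark 0.5 and -0.5, dashed lines 1 and -1, and 54 genes fall outside the axis limits of -1.5 and 1.5. All 10 genes lie between the dotted lines, inside the cloud of genes of like level.

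The D cyclins couple growth factor signals to the cell cycle and differed widely in level here. CCND1 (chr11:69455873-69469242 of hg19, plus strand, 5 exons in its canonical transcript) had 184 FPKM with siControl and 170 with siSNRNP40, a log2 fold change of -0.12. This level exceeded that of 96.9% of the expressed genes. The gene LTO1 overlaps CCND1 on the opposite strand and has no value under that symbol. CCND3 (chr6:41902671-42016610, minus strand) had 33.5 FPKM with siControl and 40.6 with siSNRNP40, a log2 fold change of 0.28. Its difference thus had the opposite sign to that of CCND1. CCND2, the remaining D cyclin, was nearly silent, at 0.151 and 0.167 FPKM. CCND1 made up 84.6% of the summed D cyclin FPKM with siControl and 80.7% with siSNRNP40. The sum over the D cyclins was 218 and 211 FPKM, a log2 fold change of -0.05.

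CDK4 and CDK6 are the kinases that D cyclins activate. CDK4 (minus strand, 8 exons) is at chr12:58141510-58149796 in GENCODE, and its deposited locus is chr12:58138784-58146230. It had 39.8 FPKM with siControl and 38.5 with siSNRNP40, a log2 fold change of -0.05. CDK6 (chr7:92234235-92465941, minus strand) had 20.5 and 18.7 FPKM in the same order, a log2 fold change of -0.13. In GENCODE the CDK6 gene spans 231.7 kb and the CDK4 gene 8.3 kb. CDK4 supplied 66.0% of their summed FPKM with siControl and 67.3% with siSNRNP40, so the balance between these kinases differed little between the conditions. The sum went from 60.3 to 57.2 FPKM, a log2 fold change of -0.08. The gene TSPAN31 overlaps CDK4 on the opposite strand and shares its locus in the table. It had 8.46 and 6.73 FPKM, and since no source used here says whether strand was used in counting, reads of the overlap cannot be told apart.

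The E cyclins, which activate CDK2 at the passage from G1 to S phase, were both lower with siSNRNP40. CCNE1 (chr19:30302901-30315215, plus strand, 12 exons) had 14.7 FPKM with siControl and 11.9 with siSNRNP40, a log2 fold change of -0.31. CCNE2 (minus strand, 12 exons) is at chr8:95891998-95908906 in GENCODE, a span of 16.9 kb. Its deposited locus, chr8:95835534-95907482, spans 71.9 kb. CCNE2 had 33.9 and 26.0 FPKM, a log2 fold change of -0.38, the largest absolute value among the 10 genes. Together they went from 48.6 to 37.9 FPKM, a log2 fold change of -0.36, and CCNE2 kept a nearly constant share of this sum (69.7% with siControl and 68.7% with siSNRNP40). The locus of CCNE2 also holds INTS8, a gene on the opposite strand that overlaps it. INTS8 had 30.6 FPKM with siControl and 32.7 with siSNRNP40, a log2 fold change of 0.09. Reads of this overlap cannot be told apart either, as for CDK4.

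Their kinase CDK2 (chr12:56360556-56366568, plus strand, 7 exons) had 28.4 FPKM with siControl and 28.8 with siSNRNP40, a log2 fold change of 0.02. Among the 3729 genes within 2-fold of its level, 90.9% had an absolute value at least as large. The gene PMEL overlaps CDK2 on the opposite strand and had 0.227 FPKM with siControl and 0.225 with siSNRNP40, low beside CDK2. CDKN1B (chr12:12870302-12875305, plus strand), the inhibitor of cyclin E and CDK2, had 12.9 and 10.6 FPKM, a log2 fold change of -0.28. The inhibitor and the E cyclins thus had values on the same side of 0, while CDK2 lay at 0.02.

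RB1, the pocket protein at the centre of the pathway (chr13:48877883-49056026, plus strand, 27 exons), had 20.8 FPKM with siControl and 18.1 with siSNRNP40, a log2 fold change of -0.20. At this level 35.1% of 4278 genes differed at least as much. LPAR6, a receptor gene on the opposite strand, overlaps its locus and had 0.774 and 1.2 FPKM, low beside RB1.

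E2F1, the activating factor that RB1 restrains, is on chr20:32263292-32274210 (minus strand, 7 exons) and had the lowest mean FPKM of the 10 genes, although CDKN1B was lower with siSNRNP40. It had 8.66 FPKM with siControl and 11.0 with siSNRNP40, a log2 fold change of 0.35, the highest value among them. Of 4506 genes within 2-fold of its level, 16.4% had an absolute value at least as large. E2F1 and the E cyclins, which are all textbook E2F targets, therefore had values of opposite sign.

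The start of E2F1 is shown because E2F factors are known to act on the E2F1 gene itself, and it was the gene with the highest value. RefSeq promoter windows of 300 bases, from 250 bases before to 50 after the start (build GRCh38.p14), were matched for 7 of the 10 genes, and CCND1, CCNE2 and CDK2 were not matched. The motif searched was any of TTTCCCGC, TTTGGCGC, TTTCGCGC and TTTGCCGC, on both strands. It was found in 3.32% of 35097 windows of all genes and, among the 7 genes, in E2F1 alone, with 2 matches that begin 33 and 20 bases before the start. The window of E2F1, at chr20:33686336-33686635 of GRCh38.p14 on the minus strand, is printed with the matches in capitals:
E2F1: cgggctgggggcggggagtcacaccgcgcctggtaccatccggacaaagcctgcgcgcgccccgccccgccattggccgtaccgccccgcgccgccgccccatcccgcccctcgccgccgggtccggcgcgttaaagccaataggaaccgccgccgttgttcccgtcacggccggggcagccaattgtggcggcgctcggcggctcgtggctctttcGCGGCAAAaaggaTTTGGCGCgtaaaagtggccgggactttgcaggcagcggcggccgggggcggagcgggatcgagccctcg
The first match reads TTTGCCGC on the other strand and the next reads TTTGGCGC as printed. The GC box GGGCGG, also searched on both strands, was found for 6 of the 7 genes, in at least 1 of their windows, and in 44.9% of all windows. The 7 genes had 10 windows, so for both motifs a count of genes is not directly comparable with a share of windows. A match describes letters and not binding, and windows without a match may hold other forms of a site.

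Single transcripts were examined for the genes with more than 1, because SNRNP40 is a splicing factor. The table does not name the transcripts, so they are numbered here by mean level. CCND3 had 3 expressed transcripts and CDK2 and CDK6 had 2 each, while the other 7 genes had a single listed transcript. The first transcript of CCND3 was level, with 27.6 FPKM with siControl and 28.5 with siSNRNP40. Transcript 2 had 4.91 and 9.76 FPKM, a log2 fold change of 0.99, and transcript 3 had 0.950 and 2.43 FPKM, a log2 fold change of 1.35. The higher sum of CCND3 thus came mostly from its minor transcripts, and the share of the first was 82.5% with siControl and 70.0% with siSNRNP40.

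For CDK2 the near-constant sum held transcripts with values of opposite sign. Its first transcript had 16.4 FPKM with siControl and 21.3 with siSNRNP40, a log2 fold change of 0.38, and its second had 12.0 and 7.55 FPKM, a log2 fold change of -0.66. The share of the first was 57.8% and 73.8%, a difference of 16.0 points. The CDK6 transcripts had 12.0 and 10.1 FPKM for the first and 8.48 and 8.56 FPKM for the second, and the share of the first differed by -4.44 points. Such differences were frequent in the table: of 3225 genes with 2 or more expressed transcripts, 37.5% had a share of the most expressed transcript that differed by over 10 points (a limit chosen after the values were seen), as it did for 2 of these 3 genes. Of the 14 transcripts of the 10 genes at this level, 1, transcript 3 of CCND3, passed an absolute log2 fold change of 1 (7.14%, beside 10.5% of all 16650 transcripts). The FPKM of overlapping transcripts are shares of common fragments assigned by a model, and their precision is unknown here.

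**Figure D3:**
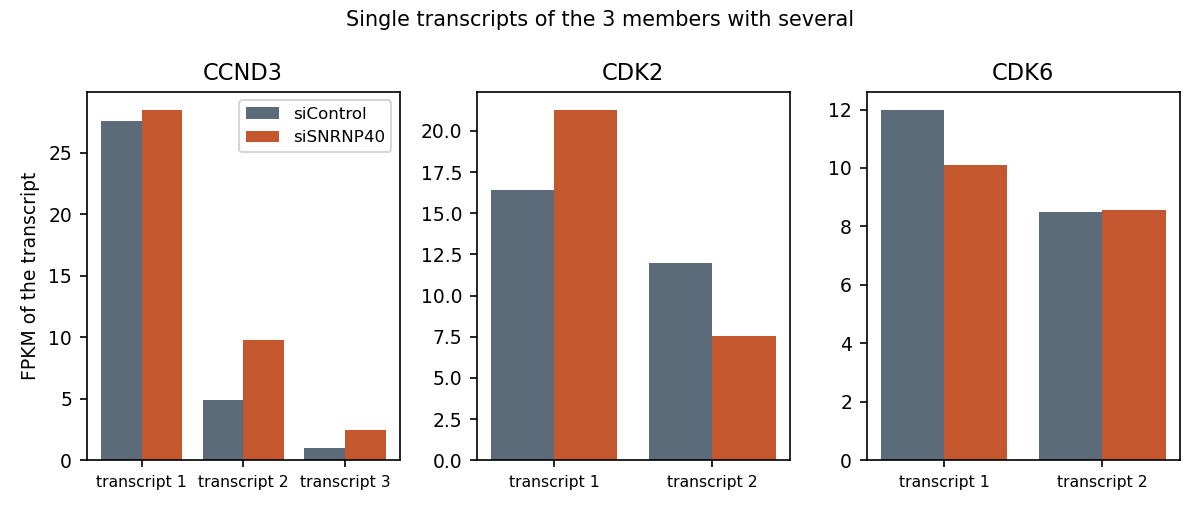
FPKM of each expressed transcript of CCND3, CDK2 and CDK6, numbered by mean level, with grey bars for siControl and red bars for siSNRNP40, each the authors' pooled value of 2 libraries. Transcripts 2 and 3 of CCND3 are higher with siSNRNP40, and the transcripts of CDK2 differ in opposite directions.

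The other genes of the pathway were read from 6 fixed lists with 52 genes, of which 49 were expressed. Of these, 18 were higher and 31 lower, beside 50.5% higher and 49.5% lower among all expressed genes. These counts take the sign of a difference of any size, however small. Above a log2 fold change of 0.5 were 2 genes (5.24% of all genes) and below -0.5 was 1 (5.06% of all genes), and the median was -0.044.

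The list named for other G1 cyclins and CDK-activating genes also holds cyclins and CDKs of other roles. Its 10 expressed genes were CDK3, CDK7, CCNH, MNAT1, CDC25A, CDC37, CCNC, CDK8, CCNA2 and CDK1, while CCND2 was not expressed. Of the 10, 3 were higher and 7 lower, with a median of -0.044. CDK3, a little studied kinase of G1, had 1.58 FPKM with siControl and 0.650 with siSNRNP40, a log2 fold change of -1.28 at a level near the limit of 1. The CDK-activating kinase, made of CDK7, CCNH and MNAT1, had log2 fold changes of -0.05, 0.05 and -0.12 (its genes were named after their values were seen). Among the CDK inhibitors, 3 of the 4 expressed genes were higher, with a median of 0.257 that turned to -0.134 when the most expressed transcript stood in for the sum. CDKN1C (p57) had 8.18 and 11.8 FPKM, a log2 fold change of 0.53. CDKN1A (p21), named after its value was seen, had 8.62 and 11.3 FPKM, a log2 fold change of 0.38. On summed FPKM, these relatives of CDKN1B thus had values of the opposite sign to its -0.28. Their single transcripts were not examined one by one.

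RBL1 and RBL2, the pocket proteins related to RB1, were named after their values were seen and had log2 fold changes of -0.29 and -0.14, on the same side of 0 as RB1. In the list of pocket proteins and the MuvB complex, which represses cell cycle genes in resting cells, 2 of 8 genes were higher, with a median of -0.101. The extremes were LIN9 (13.5 and 10.4 FPKM, a log2 fold change of -0.37) and MYBL2 (4.06 and 5.58 FPKM, 0.46), a factor that binds MuvB in dividing cells. Of the other E2F and DP genes, 5 were higher and 4 lower, with a median of 0.044 that turned to -0.069 when only the most expressed transcript was taken. The activator E2F2 had 1.26 FPKM with siControl and 2.01 with siSNRNP40, a log2 fold change of 0.67, so it had the same sign as E2F1 but a far lower level.

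Among the RB corepressors, 3 of 7 genes were higher, with a median of -0.009, and the log2 fold changes ran from -0.35 for the deacetylase HDAC2 to 0.09 for the remodelling ATPase SMARCA4. In the list of genes that act on the turnover of G1 regulators, whichever way they act, 2 of 11 were higher, with a median of -0.078. Its extremes were CKS1B, a cofactor of the ubiquitin ligase for CDKN1B, at -0.29, and FBXW7, the ligase subunit that recognises cyclin E, at 0.25. FBXW7 had 17.9 FPKM with siControl and 21.4 with siSNRNP40.

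The list of textbook E2F target genes holds genes of DNA replication and nucleotide supply. It also holds CCNA2, CDC25A, CDK1, RBL1 and MYBL2, which are counted in the lists above as well. All 21 were expressed, 11 were higher and 10 lower, and the median was 0.036, beside 0.003 for all genes. MYBL2 had the highest value (0.46), and TYMS, the enzyme that makes thymidylate, the lowest (16.3 and 13.1 FPKM, -0.31). None passed an absolute value of 0.5, which 10.3% of all expressed genes did. Of 12 genes of the G2 and M phases, 11 were lower with siSNRNP40, beside 49.5% of all expressed genes. The 11 include MKI67, which was level at 68.1 FPKM in both conditions, and CCNB2, at a log2 fold change of -0.03. The median of the 12 was -0.113, with values from -0.23 for the centromere protein CENPF to 0.02 for the kinase AURKA. Pooled values do not show how far such small shifts vary between the 2 libraries of a condition. In bulk RNA, fewer cells in a phase and less RNA per cell cannot be told apart.

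**Figure D4:**
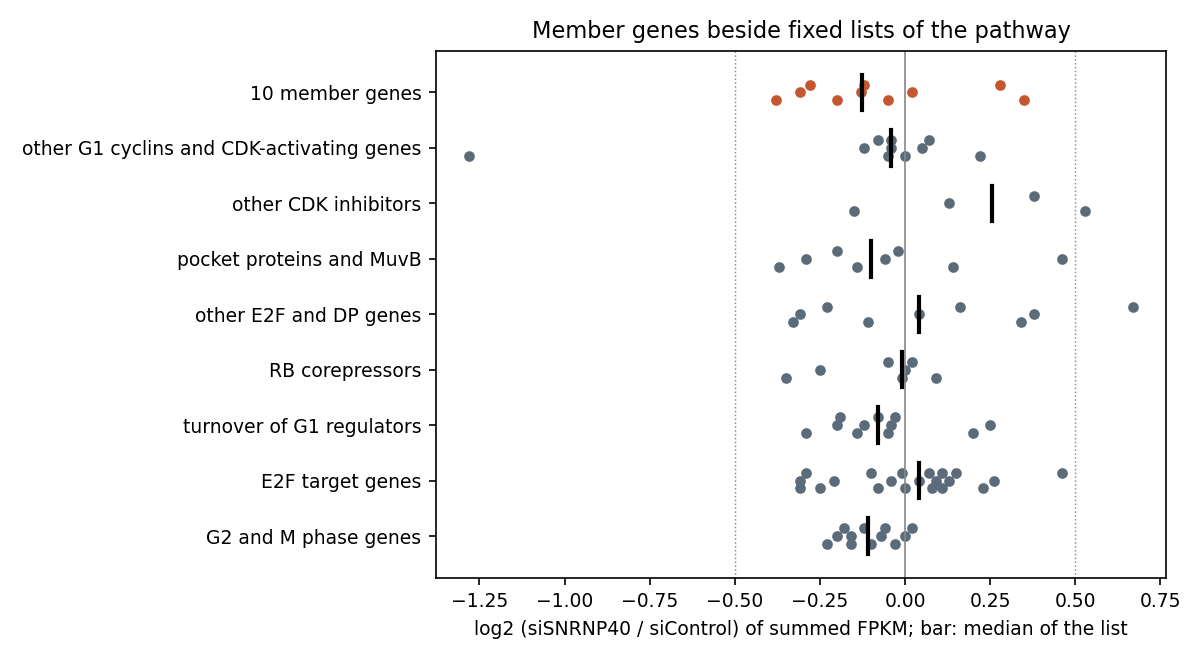
The log2 ratio of siSNRNP40 to siControl of every expressed gene, 1 point per gene and 1 row per list, with a black bar at the median of the list and dotted lines at 0.5 and -0.5. The 10 genes range from -0.38 to 0.35, and CDK3, at -1.28, is the point farthest from 0.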

How the data were processed

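RNA of 4 libraries was sequenced on an Illumina instrument. According to the submitters' processing notes, reads were trimmed with cutadapt 1.2.1, aligned with TopHat2 2.0.8 to hg19, and quantified with Cufflinks and Cuffdiff 2.0.2. The deposited FPKM values, 1 per transcript and condition, were made by the authors by pooling the 2 libraries of a condition. The table also holds the authors' fold changes, test statistics, p-values and q-values, which were not used. Depth is unknown.

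FPKM was summed per gene symbol, with a filter of a mean FPKM of at least 1 and no pseudocount. A fold against a value of 0 was not computed. Folds of single transcripts that the table marks as failed (69 rows, 0 of them among the 10 genes) were left out. No test was run. The genes named were the 10 genes, SNRNP40, CDKN2A, CDKN2B and, in each other list, those past an absolute log2 fold change of 0.5 or otherwise both extremes. CCND2, CDK7, CCNH, MNAT1, CDKN1A, RBL1, RBL2, MKI67 and genes that overlap a member were named in addition, after their values were seen. CDC25A, CDC37, CCNC, CDK8, CCNA2 and CDK1 were named only to give the content of lists. Members and lists were chosen with earlier results of these data known. Coordinates on hg19 are those of the deposited locus unless GENCODE is named, and a locus can differ in extent from the gene. Locus starts were counted from 1. Exons, strands and overlaps came from GENCODE release 44 mapped to GRCh37, which shares its coordinates with hg19. Summing and calling were checked on simulated data. Alternatives changed the pseudocount, scaling, filter, base of the logarithm and summing of transcripts. Calculations used Python 3.11.15, numpy 2.4.6 and pandas 2.3.3.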

Additional observations from a re-analysis of the deposited data

How the results depend on the processing

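No paired analysis was possible because the table holds pooled values, and for the same reason no replicate could be left out. Without counts the limits set by depth are unknown. The log2 fold change of SNRNP40 was -2.54 with a pseudocount of 1. Of the member transcripts, 1 passed an absolute log2 fold change of 1; the count was 0 with a pseudocount of 1, at a mean FPKM of 5 or more and with a natural log, and 2 with upper-quartile scaling. The median of the other CDK inhibitors, 0.257, was -0.134 with the most expressed transcript of each gene, a change of direction, and 0.129 without an expression filter. The median of the other E2F and DP genes, 0.044, also changed direction, to -0.069, with the most expressed transcript. With that setting CCND3 had 0.042, CDK2 0.376 and CDK6 -0.247, since part of each sum is then left out. The other 87 values of the main results stayed within 0.1 on the log2 scale or within 1.5 times for counts, as did 37 of 40 values of single genes. Medians near 0 among these still changed sign. That of the E2F target genes, 0.036, was -0.001 at a mean FPKM of 5 or more. That of the RB corepressors, -0.009, was 0.022 with upper-quartile scaling and 0.001 with the most expressed transcript. For the medians the cause was not tested.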

Other observations

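Ratios between genes of the pathway were formed after the values were seen and are descriptions of pooled values. The summed FPKM of the E cyclins was 5.62 times that of E2F1 with siControl and 3.44 times with siSNRNP40, a log2 difference of -0.71. RB1 over E2F1 was 2.40 and 1.64 in the same order, a log2 difference of -0.55. CCND1 over CCND3 was 5.51 and 4.19, a log2 difference of -0.39. By contrast, the E cyclins over their inhibitor CDKN1B were 3.78 and 3.58, a log2 difference of -0.08, and CDK4 over CDK6 was 1.94 and 2.06, a log2 difference of 0.08. CDK2 over CDKN1B was 2.21 and 2.72, a log2 difference of 0.30.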
